A study of Mus musculus with 38 samples.

Results

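The 10 genes described here, Prdm1, Prdm14, Tfap2c, Ifitm1, Ifitm2, Ifitm3, Dppa2, Dppa3, Dppa4 and Dppa5a, are known from the founding of the mouse germ line or carry the name developmental pluripotency associated. They were picked by gene name, with earlier results of these data known. All 10 were present among the 27633 genes of the Inhba count tables and the 9798 genes of the Inha table. BLIMP1 (encoded by Prdm1), PRDM14 and AP-2γ (Tfap2c) are the transcription factors that set primordial germ cells apart from their somatic neighbours in the early embryo, and they repress somatic genes and reopen the pluripotency network. The Ifitm genes encode small membrane proteins induced by interferon, of which IFITM1 and IFITM3 (fragilis) mark nascent germ cells at their surface. STELLA (Dppa3) protects methylation marks in the oocyte and early embryo, DPPA2 and DPPA4 are paired chromatin proteins that keep developmental promoters open, and DPPA5A is an RNA-binding protein with a KH domain.

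Gonocytes, the germ cells of the fetal testis, were sorted for the green fluorescence of an Oct4-Gfp reporter, and RNA was sequenced from the paired testes of single embryos of heterozygous matings on a C57/Bl6/129svJ background. WT and KO embryos of the Inhba x Oct4-Gfp line, in which the KO cannot make activin A, were taken at E13.5 (3 WT and 4 KO) and E15.5 (4 WT and 4 KO). WT and KO littermates of the Inha x Oct4-Gfp line, in which the KO lacks the α subunit of inhibin, the antagonist of activins, were taken at E13.5 (2 pairs). The Oct4-Gfp reporter was carried by every animal, and each KO lacks its gene in the whole embryo, so a difference in gonocytes cannot be assigned to the gonocytes themselves.

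Values are given for animals in a fixed order. In the Inhba line these are WT 876.4, 803.2 and 900.2 and KO 928.1, 832.1, 696.6 and 831.2 at E13.5, then WT 941.3, 855.2, 1064.2 and 995.1 and KO 855.1, 1052.2, 1052.4 and 892.2 at E15.5. The genotype field of the sample records goes against the titles for 5 of these animals: it gives WT for 928.1 and KO for 941.3, 855.2, 1064.2 and 995.1, which are the whole WT group at E15.5. The titles were followed, and the column names of the deposited counts carry the same genotypes. The WT change with age, the genotype comparisons and the interaction rest on them. A figure caption of the paper gives the E13.5 group sizes the other way round, as the genotype field of 928.1 would. Levels are cpm, an animal's count for a gene scaled to a common total over all genes counted. Fold changes are log2 values from edgeR's quasi-likelihood test, and a gene was called where its Benjamini-Hochberg adjusted p over all genes tested was under 0.05 and its change was above 1.5-fold.

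The sorted cells had the transcripts of germ cells. Ddx4, a germ cell RNA helicase, lay between 452 and 887 cpm in the Inhba animals, whereas Sox9, a Sertoli cell factor, lay between 0.253 and 7.97 cpm. The Inha animals, all at E13.5, had Ddx4 at 320 to 629 cpm of the genes kept. Inhba animals of that age had 452 to 670 cpm. Sox9 reached further in the Inha animals, at 3.87 to 15.3 cpm of the genes kept. Total counts ran from 8466087 to 40600907 in the Inhba animals and from 6320539 to 11917167 in the Inha animals, whose table had been filtered. Inhba itself was at 1 to 27 counts in these gonocytes, with 6 to 12 counts in KO and 1 to 4 in WT animals at E13.5, so it gave no check of the genotype labels. At E13.5 all 11 Sertoli cell markers tested had positive fold changes in KO and none was called. So had all 5 mesenchyme markers tested, 2 of 3 Leydig cell markers and 1 of 4 endothelial markers. The Sertoli cell marker sum was 111 cpm in KO 928.1, whose genotype field gives WT. It was 20.9, 60.1 and 35.1 cpm in KO 832.1, 696.6 and 831.2. The germ cell markers summed to 2730 to 3048 cpm at E13.5 and to 4254 to 4917 cpm at E15.5. Bulk RNA cannot tell fewer expressing cells from less RNA per cell.

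To compare levels between genes, cpm was divided by exon length in kb. In WT gonocytes at E13.5 the order was Dppa3 (1597 ± 239 cpm per kb, SD, n = 3), Dppa5a (494 ± 18.4), Ifitm1 (246 ± 34.0), Ifitm2 (159 ± 5.83), Ifitm3 (119 ± 9.83), Dppa4 (59.6 ± 3.83), Prdm1 (27.4 ± 2.28), Prdm14 (11.1 ± 1.85), Dppa2 (6.72 ± 0.43) and Tfap2c (3.89 ± 0.84). No neighbours in this order overlapped. Transcripts of Dppa3, Dppa5a, Dppa4 and the Ifitm genes were thus higher per length than those of the transcription factors in this line. Dppa2 lay below Prdm1 and Prdm14. In Inha WT animals at E13.5 the higher transcripts ran from 36.2 (Ifitm1) to 611 (Dppa3) cpm per kb. Prdm1 was at 30.2 cpm per kb there, and its animals overlapped those of Ifitm1. In WT gonocytes at E15.5 Dppa3 (502 ± 265 cpm per kb, SD, n = 4) remained first and Dppa4 (173 ± 22.9) stood second, with overlapping animals. Ifitm2 (103 ± 32.1), Ifitm1 (67.0 ± 40.1), Dppa5a (58.4 ± 32.1) and Ifitm3 (25.5 ± 11.7) followed, each overlapping the next of these 4 and none overlapping Dppa4. Prdm1 (7.89 ± 1.31) did not overlap Ifitm3 above it or Dppa2 (3.37 ± 1.15) below it, and Dppa2, Prdm14 (1.99 ± 1.02) and Tfap2c (1.77 ± 0.43) could not be ordered within their spread.

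**Figure D1:**
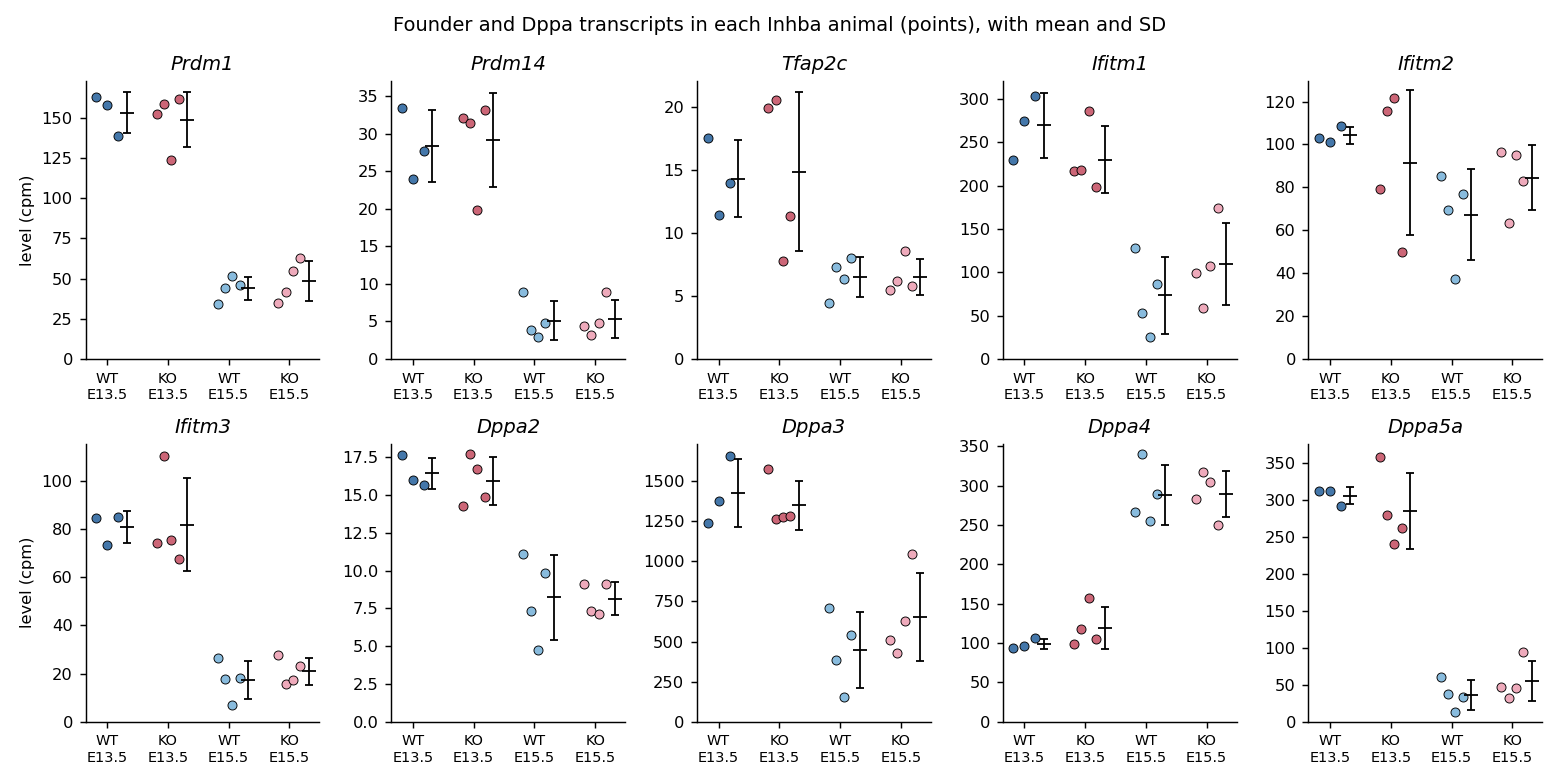
Level of each of the 10 transcripts in cpm (vertical axis from 0, a scale for each panel) in every Inhba animal, by genotype and age; points are animals and the bar beside each group is the mean with its SD. Dppa4 lay higher at E15.5 than at E13.5 in every animal, and the other panels show lower levels at E15.5, with overlap of ages in KO animals for Tfap2c and Ifitm2.

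The first comparison asked how these transcripts changed as normal gonocytes aged from E13.5 to E15.5. All 10 were called in WT animals: 9 fell and Dppa4 rose. Of the 15376 genes tested, 28.1% were called lower and 34% higher, so age changed much of the transcriptome and the call of a single gene was common. For each of the 10 the older animals were separate from the younger ones in cpm, as was so for 70.9% of all genes tested. The median log2 fold change of the 10 was -1.96, against 0.05 over all genes tested.

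In GRCm38 the founder factors lie at chr10:44437177-44528501 (Prdm1, minus strand), chr1:13113457-13127163 (Prdm14, minus strand) and chr2:172549593-172558622 (Tfap2c, plus strand), and reads were counted over exons. Prdm1 lay at 163, 158 and 139 cpm at E13.5 and at 34.1, 44.2, 51.5 and 46.1 cpm at E15.5 in WT animals. All 4 older animals were far below the 3 younger ones, and Prdm1, the repressor of somatic genes, fell by 2.02 (SE 0.19, adjusted p = 3.2e-07) on the log2 scale. Prdm14, which encodes the partner that restores the pluripotency network and lowers DNA methylation, lay at 33.4, 24 and 27.7 cpm at E13.5 and at 8.87, 3.82, 2.95 and 4.81 cpm at E15.5. It fell by 2.67 (SE 0.38, adjusted p = 1.3e-05), and animal 941.3 kept the most. Tfap2c, which encodes a factor acting downstream of BLIMP1, lay at 17.5, 11.4 and 13.9 cpm and then at 4.41, 7.26, 6.31 and 8.04 cpm. It was the lowest of the founder factors per length at E13.5, overlapped Prdm14 at E15.5 and fell by 1.37 (SE 0.31, adjusted p = 0.00101). At E15.5 the mean levels were 28.7% of that at E13.5 for Prdm1, 18.02% for Prdm14 and 45.5% for Tfap2c.

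The Ifitm genes are neighbours on chromosome 7 of GRCm38, where Ifitm2 (140954837 to 140955987, minus strand), Ifitm1 (140967221 to 140969825, plus strand) and Ifitm3 (141009586 to 141010770, minus strand) lie within a cluster. Ifitm1 lay at 229.8, 274 and 304 cpm at E13.5 and at 128, 53.6, 25.7 and 86 cpm at E15.5 in WT animals. The older animals spread widely, with 941.3 highest and 1064.2 lowest, and Ifitm1 fell by 2.09 (SE 0.40, adjusted p = 2.3e-04). Ifitm3, the fragilis gene, lay at 84.5, 73.2 and 85 cpm and then at 26.3, 17.8, 6.97 and 18.1 cpm, again with 941.3 highest and 1064.2 lowest. It fell by 2.44 (SE 0.32, adjusted p = 6.4e-06). Ifitm2, whose product acts against viruses inside the cell, lay at 103, 101 and 108 cpm and then at 85.5, 69.3, 37.3 and 77 cpm. Its fall was smaller (log2 fold change -0.85, SE 0.27, adjusted p = 0.00938), and 64.6% of the E13.5 mean remained against 27.2% for Ifitm1 and 21.4% for Ifitm3.

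Of the 80-base words of Ifitm2 transcripts, the length of a read in the Inhba line, 40.6% also occurred in other annotated genes (Gm45717, Gm11951, Gm2840, Gm45308 and Gm8865), and its exons overlapped those of Gm45717 on the same strand, so its counts are less certain than those of Ifitm1 (0.0975% shared) and Ifitm3 (0%). Dppa2 (25.4%), Dppa4 (18.2%) and Dppa5a (16.5%, with Dppa5b and Dppa5c among the sharing genes) also have near copies. Dppa3 shared 1.97% of its words, and Prdm1, Prdm14 and Tfap2c shared 0%.

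The promoters of the Ifitm genes are shown because these 3 neighbours changed by different amounts. RefSeq windows (GRCm38.p6) of 250 bases before to 50 after RefSeq's gene start were at hand for 4 of the 10 genes, Prdm1, Ifitm1, Ifitm2 and Ifitm3. Capitals mark the core of the element through which interferon acts, GAAA, any 2 bases and GAAA again, searched on both strands.
Ifitm1, chr7:140967826-140968125, plus strand: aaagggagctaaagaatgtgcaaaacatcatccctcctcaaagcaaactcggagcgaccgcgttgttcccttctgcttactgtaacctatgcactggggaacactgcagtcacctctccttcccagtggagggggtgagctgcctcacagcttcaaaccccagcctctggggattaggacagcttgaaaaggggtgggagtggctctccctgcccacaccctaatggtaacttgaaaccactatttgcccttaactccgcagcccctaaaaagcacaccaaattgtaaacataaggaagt
Ifitm2, chr7:140955912-140956211, minus strand: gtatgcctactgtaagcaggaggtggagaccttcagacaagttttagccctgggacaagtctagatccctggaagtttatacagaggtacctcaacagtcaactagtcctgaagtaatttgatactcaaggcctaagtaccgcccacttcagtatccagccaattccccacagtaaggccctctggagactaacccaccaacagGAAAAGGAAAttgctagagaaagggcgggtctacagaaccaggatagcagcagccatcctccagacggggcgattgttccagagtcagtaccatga
Ifitm3, chr7:141010695-141010994, minus strand: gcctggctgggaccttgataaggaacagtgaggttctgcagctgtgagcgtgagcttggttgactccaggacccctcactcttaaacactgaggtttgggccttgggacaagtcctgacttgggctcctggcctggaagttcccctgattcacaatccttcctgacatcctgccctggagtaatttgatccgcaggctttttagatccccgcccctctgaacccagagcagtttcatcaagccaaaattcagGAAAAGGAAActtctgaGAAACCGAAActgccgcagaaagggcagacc
The core occurred at base 205 of the Ifitm2 window and at bases 253 and 270 of the Ifitm3 window, counted from its 5′ end, and not in the Ifitm1 or Prdm1 window. The matches did not overlap each other. Of 32851 promoter windows of this length, 3.44% held the core. The Ifitm1 and Prdm1 windows lie wholly inside the gene spans given above, so the outer starts of those genes were not searched. The octamer ATGCAAAT, bound by OCT4, and the palindrome GCCNNNGGC, bound by AP-2 factors, were found in none of the 4 windows (1.74% and 16.6% of all windows). The windows held 5 (Ifitm1), 4 (Ifitm2), 5 (Ifitm3) and 20 (Prdm1) CpG sites, against a median of 7.

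The Dppa genes lie at chr6:122626410-122630272 (Dppa3, plus strand), chr9:78367052-78368177 (Dppa5a, minus strand), chr16:48303908-48319723 (Dppa2, plus strand) and chr16:48283733-48294237 (Dppa4, plus strand). Dppa3 was the most abundant of the 10 and lay at 1241, 1376 and 1658 cpm at E13.5 and at 712, 386, 155 and 539 cpm at E15.5 in WT animals. The older animals differed from each other by more than the younger ones, with 941.3 highest and 1064.2 lowest. Dppa3 fell by 1.89 (SE 0.38, adjusted p = 3.3e-04). Dppa5a, which encodes the KH domain protein of pluripotent cells, lay at 312, 312 and 292 cpm and then at 61.1, 37, 12.6 and 33.8 cpm, so that 11.8% of the mean remained. This was the deepest fall of the 10, and Dppa5a fell by 3.29 (SE 0.41, adjusted p = 4.1e-06). Only 0.592% of the genes tested had a more negative fold change.

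Dppa2 and Dppa4 lie side by side on chromosome 16, and their products act as a pair, yet they moved apart. Dppa4 lay at 94, 96.8 and 106 cpm at E13.5 and at 266, 341, 255 and 289.6 cpm at E15.5 in WT animals, and it rose to 291% of its earlier mean (log2 fold change 1.32, SE 0.13, adjusted p = 6.2e-07). Every older animal was above every younger one. Dppa2 lay at 17.6, 16 and 15.7 cpm and then at 11.1, 7.36, 4.72 and 9.83 cpm, and it fell by 1.21 (SE 0.23, adjusted p = 2.1e-04). The spread at E15.5 had 941.3 at the top and 1064.2 at the bottom, as for Prdm14, Ifitm1, Ifitm2, Ifitm3, Dppa3 and Dppa5a. Per length, Dppa4 stood above Dppa2 at both ages, by 59.6 against 6.72 cpm per kb at E13.5 and by 173 against 3.37 cpm per kb at E15.5.

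Transcript length moved with age in these libraries. Transcripts under 1500 bases took 9.05% to 9.65% of the counts in WT animals at E13.5 and 6.72% to 7.58% at E15.5. Dppa3, Dppa5a and the 3 Ifitm genes were in the shortest of 10 equal bins of the genes tested by exon length, whose median log2 fold change with age was -0.40 in WT and -0.32 in KO animals. Less this median, the WT log2 fold changes were -1.49 for Dppa3, -2.89 for Dppa5a, -1.69 for Ifitm1, -0.45 for Ifitm2 and -2.04 for Ifitm3. For Ifitm2 this is under the 1.5-fold that a call required. Markers of other cells moved with age too. In WT animals the summed level of 12 interstitial mesenchyme markers went from a range of 201 to 219 cpm to one of 251 to 352 cpm, that of 11 macrophage markers from 2.93 to 4.16 cpm up to 11.3 to 26.2 cpm, that of 11 erythroid markers from 4.23 to 5.002 cpm up to 10.7 to 14.7 cpm and that of 10 endothelial markers from 109 to 158 cpm down to 62.2 to 127 cpm, with overlap for the last. Of those tested, 4 of 6 mesenchyme markers rose, and of 6 endothelial markers 4 rose and 2 fell. The sums of 9 Leydig cell markers (32.9 to 36.1 and 33.6 to 41.8 cpm) and 17 Sertoli cell markers (16.3 to 38.8 and 30.5 to 59.2 cpm) overlapped between the ages, and Hbb-bh1 was at 0 in all Inhba animals. The part of length and of these cells in the members' changes was not tested beyond these values.

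The second comparison asked whether the same change with age took place without activin A. In KO animals 9 of the 10 were called, 8 lower and Dppa4 higher, with 25.2% of the 14653 genes tested called lower and 29.1% higher. For 8 of the 10 the older and younger animals were separate in cpm, against 57.3% of all genes tested. The exceptions were Ifitm2 and Tfap2c. The median log2 fold change of the 10 was -1.22, against 0.02 over all genes tested. Beside these, 7 of the 11 markers tested for Sertoli cells fell in the older KO animals (summed level 20.9 to 111 cpm, then 14.3 to 42.5 cpm) and 3 of 7 mesenchyme markers rose (196 to 311 cpm, then 288 to 351 cpm), and their part in the members' changes was not tested.

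Among the founder factors, Prdm1 lay at 152, 158, 124 and 161 cpm at E13.5 and at 34.8, 41.7, 54.5 and 63 cpm at E15.5 in KO animals. It fell by 1.72 (SE 0.18, adjusted p = 1.1e-06). Prdm14 lay at 32.1, 31.4, 19.9 and 33.1 cpm and then at 4.37, 3.15, 4.85 and 8.9 cpm, with 892.2 the highest of the older animals. It fell by 2.55 (SE 0.36, adjusted p = 1.6e-05). Tfap2c lay at 19.9, 20.5, 7.73 and 11.3 cpm and then at 5.43, 6.21, 8.59 and 5.81 cpm, where animal 696.6 was low enough at E13.5 to fall within the older group. It fell by 1.29 (SE 0.30, adjusted p = 0.00123).

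Ifitm1 lay at 217, 218, 286 and 198 cpm at E13.5 and at 98.9, 58.7, 107 and 174 cpm at E15.5 in KO animals. Animal 892.2 kept the highest level of the older group, and Ifitm1 fell by 1.15 (SE 0.37, adjusted p = 0.0124). Ifitm3 lay at 74.2, 110.3, 75.5 and 67.4 cpm and then at 27.6, 15.7, 17.2 and 23.3 cpm. It fell by 2.07 (SE 0.30, adjusted p = 2.1e-05). Ifitm2 lay at 79.4, 116, 122 and 49.6 cpm and then at 96.5, 63.6, 95 and 83 cpm, and the younger animals spread more widely than the older ones and enclosed them. It was the only 1 of the 10 not called (log2 fold change -0.20, SE 0.25, adjusted p = 0.499, 95% interval -0.72 to 0.33).

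Dppa3 lay at 1577, 1262, 1274 and 1285 cpm at E13.5 and at 512, 428, 626 and 1044 cpm at E15.5 in KO animals. Here too 892.2 was the highest of the older group, and Dppa3 fell by 1.14 (SE 0.35, adjusted p = 0.00891). Dppa5a lay at 359, 279.9, 241 and 262 cpm and then at 46.7, 32.5, 46 and 94 cpm, with 19.2% of the mean remaining. It fell by 2.47 (SE 0.38, adjusted p = 3.8e-05). Dppa2 lay at 14.3, 17.8, 16.8 and 14.9 cpm and then at 9.1, 7.32, 7.1 and 9.09 cpm, and it fell by 1.06 (SE 0.21, adjusted p = 4.2e-04). Dppa4 lay at 98.6, 117, 157 and 104 cpm and then at 284, 317, 305 and 250.1 cpm, and it rose to 242% of its earlier mean (log2 fold change 1.19, SE 0.12, adjusted p = 8.5e-07).

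**Figure D2:**
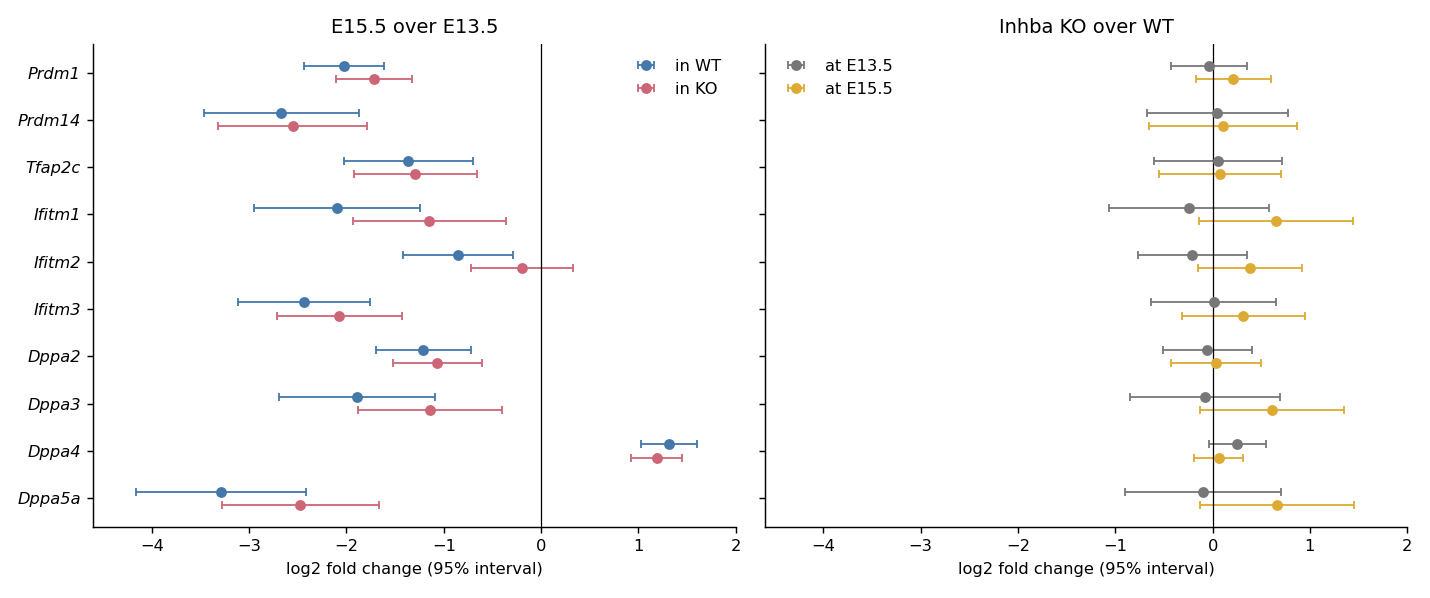
Log2 fold changes of the 10 genes with 95% intervals from edgeR (horizontal axis); left, E15.5 over E13.5 in WT and KO Inhba animals; right, KO over WT at E13.5 and E15.5. With age every gene but Dppa4 lies left of 0, with the interval of Ifitm2 in KO crossing 0, and all genotype intervals cross 0.

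The effect of activin A loss was compared at each age. At E13.5 none of the 10 was called, and no gene of the 12730 tested was called (0%, with 257 genes at an unadjusted p under 0.05, and 8 genes called by DESeq2). The animals of the genotypes overlapped in cpm for all 10, against 4.03% of all genes tested with no overlap. Dppa4 had the most positive difference (log2 fold change 0.25, SE 0.14, adjusted p = 0.9998, 95% interval -0.04 to 0.54) and Ifitm1 the most negative (-0.24, interval -1.06 to 0.58). The mean levels were 153 ± 12.7 cpm (SD, n = 3) in WT and 149 ± 17.4 cpm (n = 4) in KO animals for Prdm1, and 1425 ± 213 and 1349 ± 152 cpm for Dppa3. The intervals of Prdm1 (-0.43 to 0.36) and Dppa2 (-0.51 to 0.40) were the narrowest after that of Dppa4, and those of Dppa5a (-0.90 to 0.70) and Ifitm1 were the widest. The markers of other cells were called in no case, while their sums were WT 16.3 to 38.8 and KO 20.9 to 111 cpm for Sertoli cells, WT 2.93 to 4.16 and KO 4.70 to 7.42 cpm for macrophages and WT 4.23 to 5.002 and KO 7.42 to 14.02 cpm for erythroid cells, the last 2 with no overlap.

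At E15.5 again none of the 10 was called. Of the 15201 genes tested 0.00658% were called, which is 1 gene, and 25 genes were called by DESeq2, none of them among the 10. The genotypes overlapped for all 10, against 3.85% of all genes tested with no overlap. The fold changes of Dppa5a (0.66, SE 0.37, adjusted p = 0.498), Ifitm1 (0.65, SE 0.37, adjusted p = 0.504) and Dppa3 (0.61, SE 0.35, adjusted p = 0.504) were positive in KO, with 95% intervals of -0.13 to 1.45, -0.14 to 1.44 and -0.13 to 1.35. Mean Dppa3 was 448 ± 237 cpm in WT and 652 ± 273 cpm in KO animals (SD, n = 4 each), so the difference was smaller than the spread of either group. Ifitm2 (0.38, interval -0.15 to 0.91) and Ifitm3 (0.32, interval -0.32 to 0.95) were positive too. Prdm1 (0.21, interval -0.17 to 0.60), Prdm14 (0.11, interval -0.65 to 0.87) and Tfap2c (0.07, interval -0.55 to 0.70) were closer to 0. Dppa4 (0.06, interval -0.19 to 0.31) and Dppa2 (0.03, interval -0.43 to 0.50) had the smallest estimates. The median log2 fold change of the 10 was 0.27, against -0.01 over all genes tested, and this difference was not tested. None of the 9 Sertoli cell markers tested had a positive fold change here (summed level WT 30.5 to 59.2 and KO 14.3 to 42.5 cpm), and none was called.

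Single animals moved these differences. WT animal 1064.2 was the lowest of its group for 8 of the 10 genes and WT animal 941.3 the highest for 7. KO animal 1052.2 was the lowest of its group for 6 and KO animal 892.2 the highest for 5. Without WT 1064.2 the KO against WT log2 fold change was 0.37 for Dppa5a, 0.36 for Ifitm1 and 0.32 for Dppa3. Without KO 892.2 the values were 0.23, 0.30 and 0.25, and without WT 941.3 they were 1.06, 1.08 and 0.94. None passed the adjusted threshold under any of these (lowest adjusted p = 0.127, for Ifitm1 without 941.3). Among the 4 WT animals 1064.2 did not have the lowest depth, and its share of counts in transcripts under 1500 bases (7.58%) was the highest. Its macrophage marker sum was 26.2 cpm, against 11.3 to 15.6 cpm in the other 3, and its core pluripotency sum was 379 cpm, against 514 to 634 cpm. WT 941.3 had the most mesenchyme (352 cpm) and the least endothelial marker signal (62.2 cpm) of its group. KO 892.2 had the highest core pluripotency (643 cpm) and mesenchyme (351 cpm) sums of its group and the lowest for germ cell (4254 cpm), Sertoli cell (14.3 cpm) and endothelial markers (56.9 cpm). The part of these differences in the members' levels was not tested.

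**Figure D3:**
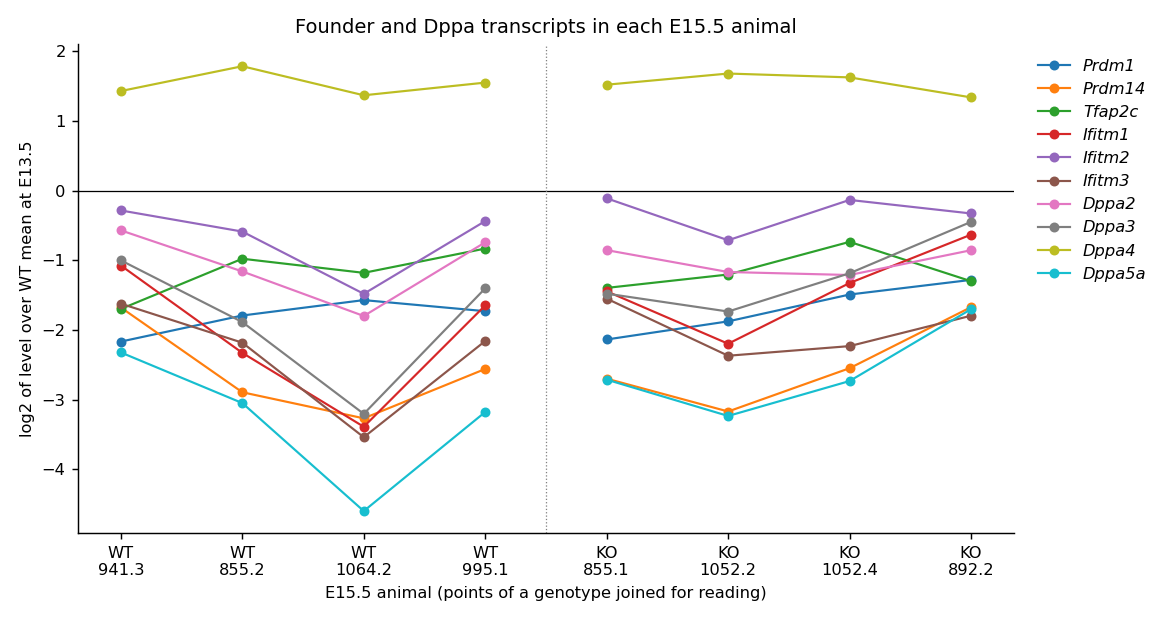
Log2 of each gene's level over its mean in WT gonocytes at E13.5 (vertical axis) for the 8 animals at E15.5 (horizontal axis, WT left and KO right; lines only join the points of a gene). Every gene but Prdm1 and Tfap2c has its lowest WT value at 1064.2, whereas Prdm1 has its highest WT value there.

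The interaction of genotype with age asked whether the change with age differed between WT and KO. None of the 10 was called, and no gene of the 15830 tested was called (0%, with 966 genes at an unadjusted p under 0.05 and 11 called by DESeq2). The estimates were 0.91 for Ifitm1 (SE 0.54, interval -0.24 to 2.06), 0.78 for Dppa5a (interval -0.36 to 1.92), 0.71 for Dppa3 (interval -0.37 to 1.79) and 0.61 for Ifitm2 (interval -0.17 to 1.39), with adjusted p from 0.778 to 0.793. Ifitm2 was called with age in WT and not in KO animals. The difference between these changes was tested by the interaction and was not called (edgeR adjusted p = 0.778). For Dppa4 the estimate was -0.17 (interval -0.55 to 0.20).

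The last comparison asked how these genes differed at E13.5 without inhibin, in the Inha littermate pairs. Of the 10, only Ifitm2 was called, as were 0.357% of the 9798 genes tested. The WT littermates had 78.2 and 27.1 cpm of Ifitm2, and the KO littermates 157 and 86.9 cpm (pair 1, then pair 2). It was 2.01-fold higher in KO in pair 1 and 3.21-fold higher in pair 2, and the KO of pair 2 was close to the WT of pair 1. With the pair as a block the log2 fold change of Ifitm2 was 1.24, with an SE of 0.22 and an adjusted p of 2.4e-05. Without the replicate block it was 1.14 with an adjusted p of 0.997, so the call rests on the pairing. Ifitm2 is on the list that the study drew from these same animals, so this test is not independent evidence.

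The WT littermates had 38.3 and 11.7 cpm of Dppa5a, and the KO littermates 67.4 and 38.6 cpm, 1.76-fold higher in pair 1 and 3.31-fold higher in pair 2. Its log2 fold change of 1.16 (SE 0.33, adjusted p = 0.0696) did not pass the threshold. The WT littermates had 44.8 and 34.4 cpm of Ifitm1, and the KO littermates 85.8 and 45.4 cpm (log2 fold change 0.58, SE 0.27, adjusted p = 0.478). Ifitm3 was 29.9 and 23.7 cpm in the WT littermates, and the KO had 55.5 and 30.4 cpm (0.54, SE 0.34, adjusted p = 0.652). Each of these was higher in cpm in the KO of both pairs, as was every other member but Tfap2c. With 2 pairs such a pattern arises often by chance, and its share over all genes was not computed. Neither Ifitm1 nor Ifitm3 passed the threshold. The WT littermates had 432 and 658 cpm of Dppa3, and the KO littermates 612 and 773 cpm (0.27, SE 0.16, adjusted p = 0.617).

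None of the founder factors passed the threshold. The WT littermates had 177 and 159 cpm of Prdm1, and the KO littermates 184 and 187 cpm (0.05, SE 0.17, adjusted p = 0.963). Prdm14 was 21.7 and 20.02 cpm in the WT littermates, and the KO had 28.4 and 26.9 cpm (0.32, SE 0.39, adjusted p = 0.878), 1.31-fold and 1.34-fold higher in the KO. Tfap2c was 23.6 and 27.7 cpm in the WT littermates, and the KO had 18.8 and 20.9 cpm (-0.46, SE 0.40, adjusted p = 0.79), the only 1 of the 10 with a lower level in the KO of both pairs. Dppa4 (WT 93.1 and 67.2 cpm, KO 102 and 71.5 cpm) and Dppa2 (WT 24.8 and 32.1 cpm, KO 25.8 and 34.2 cpm) kept to their pair, with the levels of pair 1 and pair 2 further apart than those of WT and KO. Their log2 fold changes were 0.02 (interval -0.41 to 0.44) and -0.02 (interval -0.73 to 0.69). The fit rescaled the libraries by TMM, and the cpm and pair folds given here were not rescaled. Dppa2 was thus slightly higher in cpm in the KO of both pairs, with a negative fitted change.

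**Figure D4:**
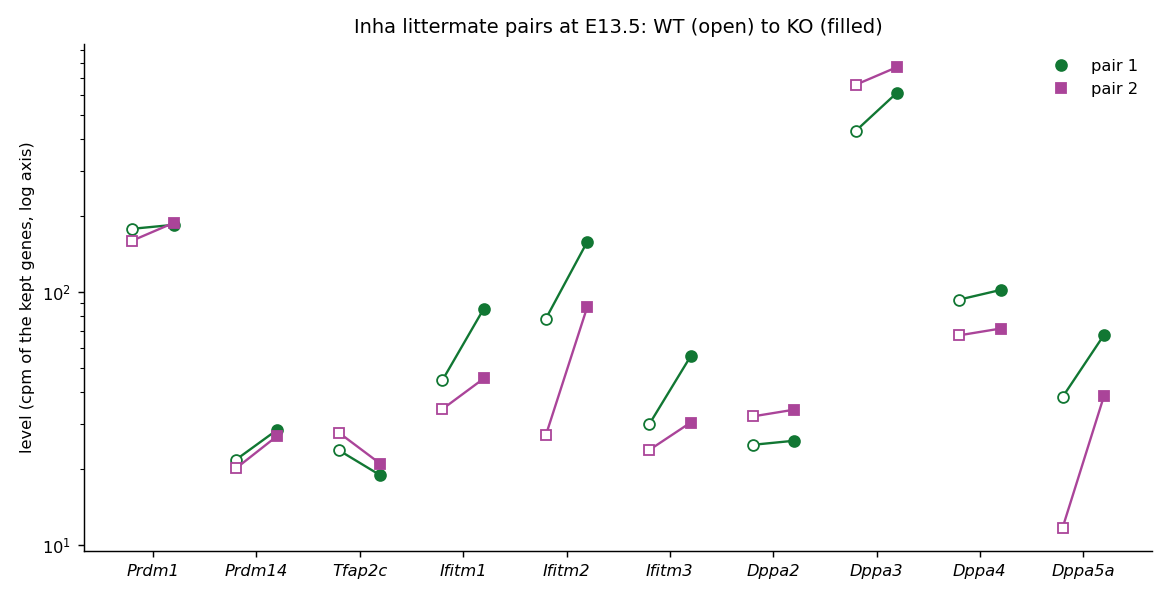
Level of each gene in the Inha animals at E13.5 (vertical log axis, cpm of the genes kept by the authors), with the WT (open) and KO (filled) littermates of pair 1 (circles) and pair 2 (squares) joined. The line of Ifitm2 climbs most in pair 1 and those of Dppa5a and Ifitm2 in pair 2, those of Tfap2c descend, and those of Dppa2 and Dppa4 are nearly flat.

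Short transcripts moved with the Inha genotype. Transcripts under 1500 bases took 1.02% to 1.19% of counts in WT and 1.29% to 1.57% in KO animals, and cytosolic ribosomal protein genes 0.375% to 0.423% and 0.518% to 0.603%. The shortest of 10 equal bins by exon length, to which the 3 Ifitm genes, Dppa3, Dppa4 and Dppa5a belonged, had a median log2 fold change of 0.18. Less this median the values were 1.07 for Ifitm2, 0.98 for Dppa5a, 0.41 for Ifitm1, 0.36 for Ifitm3, 0.10 for Dppa3 and -0.16 for Dppa4. The markers of other cells kept in this table overlapped between the genotypes for Sertoli cells (WT 42.3 to 70.8, KO 58.7 to 89.2 cpm, 7 of 17 markers kept), endothelium (72.1 to 111 and 108 to 144 cpm, 2 of 10), Leydig cells (15.6 to 25.2 and 17.0 to 20.3 cpm, 2 of 9), mesenchyme (206 to 231 and 220 to 260 cpm, 1 of 12) and macrophages (5.65 to 10.9 and 9.65 to 10.7 cpm, 1 of 11), and 1 of the 7 Sertoli cell markers, Cldn11, fell. Within pairs the KO was the higher for Sertoli cell markers (42.3 then 58.7 cpm in pair 1, 70.8 then 89.2 cpm in pair 2) and for the mesenchyme marker (230.6 then 259 cpm, 206 then 220.1 cpm), while the pairs went opposite ways for the others. Without overlap between the genotypes, the KO also had the higher sums of 7 interferon response genes (88.4 to 91.4 cpm, WT 61.6 to 74.5 cpm) and 12 core pluripotency genes (702 to 785 cpm, WT 564 to 597 cpm) and more Pou5f1 (52.7 to 67.9 cpm, WT 33.9 to 36.9 cpm). Of these only Utf1, a core pluripotency gene, was called. With 2 animals a group, separate ranges arise often by chance, and their share over all genes was not computed. The part of short transcripts, markers and these sums in the Ifitm2 result was not tested.

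The genes nearest to a member in profile were found for the 6 members with a mean above 50 cpm over the 15 Inhba animals, as the root mean square difference of centred log2 cpm among 8370 genes. This is a description, and all points share the change with age. Ifitm1 and Dppa3 were each the nearest to the other, at 0.193. Next to Ifitm1 came Tcl1 (0.254) and Pfkfb3 (0.256), and next to Dppa3 came Ddx58 (0.225) and Pfkfb3 (0.235). Dppa5a was nearest to Tet1 (0.14), followed by Mycn (0.18) and Ap3b2 (0.183). Prdm1 was nearest to Abce1 (0.141), Arl15 (0.176) and Tfrc (0.187). Dppa4, the only member to rise, was nearest to Cfap97 (0.111), Wdr59 (0.114) and Wdr92 (0.118), and Ifitm2 to Myl12b (0.219), Rpl7l1 (0.231) and Wdr46 (0.232).

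Genes that work with the members are given by lists chosen with earlier results known, so their counts are a description. Of 16 partners of the founder factors tested, 4 rose and 7 fell with age in WT and 3 rose and 6 fell in KO animals, with a median log2 fold change of -0.53 and -0.56. In WT animals Ehmt2, which encodes an H3K9 methyltransferase, rose by 1.68, the germ cell RNA-binding gene Dnd1 by 1.53 and the 5-methylcytosine dioxygenase gene Tet2 by 1.10, whereas Tet1, another such dioxygenase gene (-3.32), the stem cell factor receptor gene Kit (-2.69) and Wdr77, whose product works with PRMT5 (-1.48), fell. In KO animals Ehmt2 rose by 1.47, Dnd1 by 1.40 and Tet2 by 0.89, whereas Kit (-3.21), Tet1 (-2.38) and the histone deacetylase gene Hdac1 (-1.97) fell. Of 13 core pluripotency genes tested, 1 rose and 11 fell in WT and 1 rose and 9 fell in KO animals. The median log2 fold changes were -2.42 and -1.92. Tdgf1, a Nodal co-receptor gene (-4.15 in WT and -3.65 in KO), and the factor gene Klf5 (-3.17 and -2.53) fell in both. In WT Gdf3, a ligand gene, fell by 2.87 and Klf4 rose by 1.86, and in KO Klf2 fell by 3.59 and Tfcp2l1 rose by 1.12. None of either list was called for Inhba genotype or its interaction with age, and in Inha KO 1 of 12 core pluripotency genes, Utf1, rose by 1.08 (SE 0.21, adjusted p = 1.9e-04 by edgeR).

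The relatives of the members took other courses with age. Tfap2a and Tfap2e, the 2 of 4 other AP-2 genes tested, rose from 0 to 13 counts an animal at E13.5 to 20 to 144 counts at E15.5 (log2 fold change 3.31 and 3.49 in WT, 2.67 and 2.63 in KO), while Tfap2c fell. Of the other Ifitm genes, Ifitm10 alone was tested and rose by 4.03 in WT and 4.64 in KO animals, from at most 3 counts an animal. Of 11 interferon response genes tested in WT animals 5 rose and 2 fell, and of 10 in KO animals 4 rose and 2 fell, so the fall of Ifitm1 and Ifitm3 was not shared by most of that list. The antigen presentation gene B2m rose by 3.17 in WT and 2.59 in KO, whereas Irf1 (-1.15 and -0.92) and Bst2 (-0.80 and -0.95) fell. The medians of this list were 0.75 and 0.41. In KO Ifi27 rose by 1.95, and Usp18, at 0 counts in WT animals at E13.5, had 27 to 112 counts in WT at E15.5. Usp18 too passed the filter only through older animals and could only be called as risen. Of 4 KH domain relatives of Dppa5a tested, Khdc3 (-4.99 in WT and -3.38 in KO) and Ooep (-1.12 and -1.03) fell, and Khdc1a rose by 1.85 and 1.78.

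Of 18 listed targets of DPPA2 and DPPA4 at the 2-cell stage, 5 were in the Inhba tables, with a summed level of at most 0.39 cpm at E13.5 that reached 1.03 to 7.39 cpm in the older animals. Usp17la alone was tested with age, in WT animals, where it rose. It had at most 1 count at E13.5, and at E15.5 it had 21 to 52 counts in WT and 15 to 74 in KO animals. It passed the filter only through older animals, so a rise was the only call open to it. The maintenance methylation genes linked to STELLA moved with age, Uhrf1 (-1.57 in WT and -1.32 in KO) and Dnmt1 (-1.42 and -1.39) falling, while Tet3 rose by 4.59 and 4.03. Of the 9 germ cell markers tested, 6 rose and 2 fell in WT and 7 rose and 1 fell in KO animals, with Dnmt3l (6.88 in WT and 7.46 in KO), Piwil4 (5.44 and 5.12) and Tdrd1 (3.61 and 3.29), genes of de novo methylation and the piRNA pathway, the furthest up. Dazl fell in both (-1.32 and -0.87) and Pou5f1, the gene behind the reporter, in WT (-0.65). No member of these last lists was called for Inhba genotype, for its interaction with age or in Inha KO.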

How the data were processed

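RNA of Oct4-Gfp positive gonocytes came from 19 embryos with 38 sequencing records, 2 an animal. The authors amplified the RNA, aligned the reads (80 bases in the Inhba line) to GRCm38 (Ensembl annotation) by RNAsik, which runs STAR 2.5.2b, and deposited raw counts per gene from featureCounts (Subread 1.5.2), with 1 column per animal; the sources used here do not say how records were joined. The Inha table had been filtered by the authors for low and mitochondrial genes, so its totals are not the full depth. The genotype field differed from the titles for 5 animals, among them all 4 WT animals at E15.5, and the titles were followed. An E13.5 WT sample that the authors left out was not analysed here.

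Cpm, exon lengths (GENCODE M21, GRCm38) and tests were computed here with R 4.3.3, edgeR 4.0.16 (TMM, robust quasi-likelihood), limma 3.58.1, DESeq2 1.42.0, python 3.11, pandas 2.3.3, numpy 2.4.6 and matplotlib 3.10.9. Genes above 2.4 cpm in at least 2 animals compared were tested (at least 2 cpm in 2 animals for Inha). The 15 Inhba animals shared a fit, and Inha had its own fit, in which littermate pairs were a block. The pairs come from the labels and the study's methods (deviations of littermates from their group means, Pearson r = 0.26 over 9798 genes). Replicates of the Inhba line were not paired in the fit. Littermates of the Inha pairs share the number before the dot. By that number WT 855.2 and KO 855.1, and KO 1052.2 and 1052.4, at E15.5 may share a litter, which was not modelled. The edgeR fit was tested on simulated data.

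The rule named every member with its value in each animal, the 3 largest called changes in either direction of each related list and the 3 nearest profiles; 1 gene that it names is not reported here. Marker lists of other cells are given by sums and counts only. Members and lists were chosen with earlier results of these data known. Alternatives were DESeq2 size factors, DESeq2, limma-voom, 2 other filters, no fold threshold, the 2 groups alone, each animal left out, no block for Inha and, chosen after seeing the data, a correction for transcript length.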

Additional observations from a re-analysis of the deposited data

Results flagged for a closer look

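Of 30 sets of 4 animals tested (the 10 genes in 3 Inhba groups), 2 held an animal that stood apart from the other 3 by more than the 95% critical value of Dixon's test, and chance alone gives such a result in about 1 of 20 sets. Prdm14 was 19.9 cpm in E13.5 KO animal 696.6 and 31.4 to 33.1 cpm in the other KO animals of that age. Dppa3 was 1577 cpm in E13.5 KO animal 928.1 and 1262 to 1285 cpm in the others.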

How the results depend on the processing

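Every member's call in the age, Inhba genotype and interaction comparisons was the same under all alternatives run but the length correction, which has no test of its own. The call of Ifitm2 in Inha was lost without the replicate block (log2 fold change 1.14, edgeR adjusted p = 0.997; 0 members and 0 genes called), and with an animal left out besides, 0 to 1 members and 0 to 22 genes were called. Ifitm2 was then 0.60 to 2.06, and was called only without the KO of pair 2 (adjusted p = 0.00345). DESeq2 called 12 genes there, against 35. At E13.5, where edgeR called 0 genes, DESeq2 called 8, limma-voom 1, the 2 groups alone 2, and the animals left out in turn 0 to 3. At E15.5, against 1, DESeq2 called 25 and the animals left out 1 to 3. For the interaction, against 0, DESeq2 called 11 and the animals left out 0 to 2. Without a filter on low counts 14912 genes were called with age in WT (against 9553) and 12084 in KO (against 7962). The length correction, chosen after seeing the data, took Ifitm2 with age in WT from -0.85 to -0.45, below the 1.5-fold of a call, and in KO, where it was not called, from -0.20 to 0.13. The other called changes kept their direction.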

Other observations

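The WT gonocytes of the 2 lines at E13.5 had different levels of the short members. These tables come from separate sequencing runs with reads of different length, so no test was made. Line, run, read length, library preparation and filter cannot be told apart. Over the 9783 genes that both tables hold, Dppa5a was 25.02 cpm in Inha WT and 362 cpm in Inhba WT animals, and only 0.47% of the genes had a lower ratio. Ifitm1 was 39.6 and 319 cpm, Ifitm3 26.8 and 95.8 cpm, Ifitm2 52.7 and 123 cpm, and Dppa3 546 and 1687 cpm. Prdm1, the longest transcript of the 10, was 168 and 181 cpm. The median log2 ratio was -1.05 over 483 genes with under 1500 exon bases and 0.16 over the 3750 longest genes. For Dppa5a, Ifitm1, Ifitm3, Dppa3 and Ifitm2 the log2 ratios of -3.86, -3.01, -1.84, -1.63 and -1.23 were all below the median of short genes.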
